A study of Mus musculus with 16 samples.

Results

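Long non-coding RNAs are transcripts that act as RNA rather than as templates for protein, and 10 of them that are studied in heart muscle were followed here: *Malat1*, *Neat1*, *Miat*, *H19*, *Meg3*, *Rian*, *Mirg*, *Kcnq1ot1*, *Dnm3os* and *Gas5*. They were taken by symbol from the 55492 genes of the deposited table, and all 10 were found. RNA of left ventricles from male C57BL/6 mice aged 8 to 12 weeks was sequenced in 16 libraries, each from its own mouse. PKM2 is a form of pyruvate kinase, the last enzyme of glycolysis, and the series was designed to follow its loss in the heart at baseline and after myocardial infarction (MI). Control mice carried loxP-flanked alleles (PKM2fl/fl), and PKM2-/- mice lacked PKM2 in all cells after Cre under the CMV promoter had deleted it in the germline. Each genotype had 2 libraries at baseline without surgery, 3 taken 3 days after sham surgery and 3 taken 3 days after MI by permanent ligation of the left anterior descending artery. All values are normalized counts, that is, reads per gene divided by the size factor the authors computed for each library.

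*Malat1* and *Neat1* are neighbours on chromosome 19 that stay in the nucleus, where *Malat1* gathers at speckles rich in splicing proteins and *Neat1* is the scaffold of paraspeckles. *H19* and *Kcnq1ot1* come from imprinted regions of chromosome 7, and *Meg3*, *Rian* and *Mirg* follow each other on the maternal chromosome of the Dlk1-Dio3 region, where they carry microRNAs and small nucleolar RNAs. *Dnm3os* lies on the opposite strand of an intron of *Dnm3* and is the precursor of miR-199a and miR-214, and *Gas5* holds small nucleolar RNAs in its introns and accumulates in cells that stop growing.

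After MI, *Dnm3os*, *Mirg*, *H19* and *Gas5* rose in both genotypes against sham, *Neat1* fell in both, and *Kcnq1ot1* did not pass in either. *Malat1* fell in PKM2-/- hearts, a call that was lost in some fits that left out a library. In PKM2fl/fl hearts the value of *Malat1* was also below 0 and did not pass with limma, but passed with edgeR and DESeq2. With limma no member passed between genotypes in any treatment. A gene passed when limma's test with Benjamini-Hochberg adjustment over the 20576 genes that averaged 10 or more normalized counts gave an adjusted p under 0.05. Of the 10 RNAs, 7 reached that mean and were tested. *Miat*, *Meg3* and *Rian* did not, and their reads are described, with fits that used no filter as a secondary check. Over all genes tested 50.1% passed after MI in PKM2fl/fl hearts (24.8% higher and 25.3% lower) and 56.8% in PKM2-/- hearts (28.7% higher and 28.1% lower). The counts of genes below are to be read against these shares. The gene lists were chosen with earlier results of these data known, so an excess over a share is not independent evidence. The fold changes are on the scale of log2 of the normalized count plus 1. Groups that did not overlap are described for the members only, and the share of all genes with such groups was not counted.

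*H19* and *Dnm3os* are precursors of microRNAs whose rows held the most reads of any microRNA row at these RNAs, and their mature sequences are shown for that reason. The 10 microRNA rows within the RefSeq bounds of *Mirg* had at most 6 reads in a library each, and those within *Meg3* and *Rian* had 0. In RefSeq (GRCm38.p6), the mature arms of miR-675 lie in an exon of *H19* at chr7:142577078-142577133 on the minus strand, and those of miR-199a and miR-214 lie in *Dnm3os* at chr1:162217844-162217904 and chr1:162223397-162223459 on the plus strand. Sequences run 5′ to 3′, and capitals mark the seed, bases 2 to 8, with which a microRNA pairs to its targets. No seed was shared among the 6.
miR-675-5p: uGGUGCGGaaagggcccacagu
miR-675-3p: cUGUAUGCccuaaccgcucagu
miR-199a-5p: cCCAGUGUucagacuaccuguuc
miR-199a-3p: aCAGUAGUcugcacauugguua
miR-214-5p: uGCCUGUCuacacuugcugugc
miR-214-3p: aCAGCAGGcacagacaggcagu

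Total reads per library ranged from 20623769 to 71855101. Loci related to ribosomal RNA, of which 5 of 10 listed were in the table, took 17.3% to 22.1% of reads in PKM2fl/fl and 39.7% to 43.8% in PKM2-/- baseline hearts, which did not overlap, and their part in the baseline comparisons was not tested. They took 15.8% to 27.8% in PKM2fl/fl sham hearts, 19.8% to 44.7% in PKM2fl/fl MI hearts, 28.6% to 46.1% in PKM2-/- sham hearts and 15.999% to 34.4% in PKM2-/- MI hearts. The sham hearts of the genotypes thus did not overlap either, and the part of these loci in the comparisons that use sham hearts was not tested. The *Pkm* row counts PKM1 and PKM2 together (7779 to 12076 normalized counts in PKM2fl/fl and 10120 to 16113 in PKM2-/- hearts), so it does not check the deletion. Left ventricle markers of cardiomyocytes were abundant in every library, with sums over the 7 genes of 155761 to 926228 normalized counts. The p-values rest on the spread between mice, which limma draws for each gene toward a trend over expression level. An SE can therefore exceed what the spread of that gene alone would give.

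The level of these RNAs spans several orders of magnitude. Per kilobase of annotated exon, *Malat1* had the highest level, with 22614 normalized counts per kb on average over the 16 libraries. *Neat1* followed with 478, *H19* with 337, *Gas5* with 189, *Dnm3os* with 56.2, *Kcnq1ot1* with 22.1 and *Mirg* with 10.7 normalized counts per kb. *Meg3*, *Miat* and *Rian* were at 0.323, 0.276 and 0.136 normalized counts per kb, and their ranges over libraries overlapped. *Neat1* and *H19* changed places with treatment: at baseline every library had more *Neat1* per kb, whereas in PKM2-/- MI hearts *H19* lay at 688 to 849 and *Neat1* at 335 to 404 normalized counts per kb. In PKM2fl/fl MI hearts the ranges of the pair overlapped, with 375 to 557 for *H19* and 289 to 384 for *Neat1*. Within each of these hearts *H19* was nevertheless above *Neat1* per kb.

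**Figure D1:**
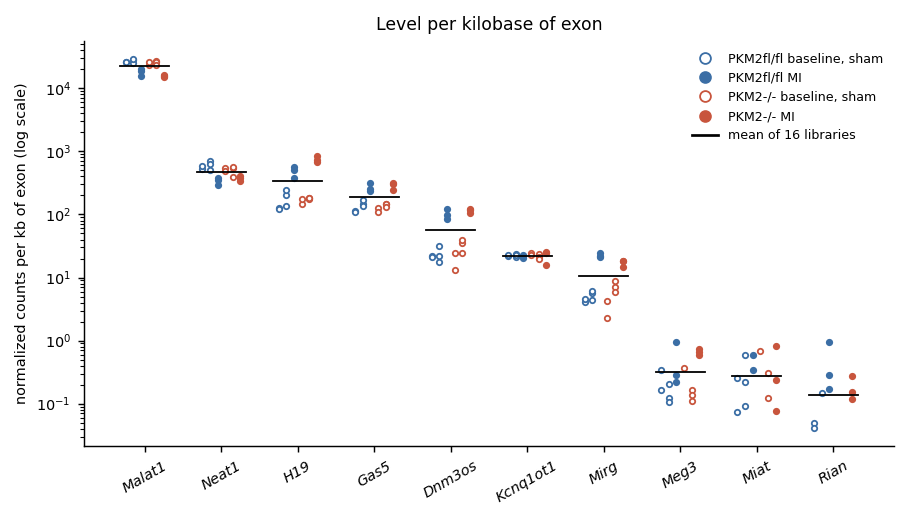
Normalized counts per kilobase of annotated exon (vertical log axis) for the 10 long non-coding RNAs. Each point is a library, filled after MI and open at baseline or after sham, blue for PKM2fl/fl and red for PKM2-/-, and the black line is the mean of 16 libraries; 11 values of 0 (*Rian* in 7 libraries, *Miat* in 3 and *Meg3* in 1) cannot be drawn on this axis. *Malat1* is the highest at 22614 on average, and *Meg3*, *Miat* and *Rian* lie below 1 in every library.

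*Malat1*, a single-exon gene on the minus strand at chr19:5795690-5802672 (GRCm38), took between 0.286% (95% Wilson interval 0.285% to 0.288%) and 0.711% (0.708% to 0.713%) of all reads. PKM2fl/fl hearts held 208399 and 202823 normalized counts at baseline, 218533, 197335 and 228517 after sham, and 150784, 157327 and 121543 after MI. PKM2-/- hearts held 181876 and 206703 at baseline, 216935, 207097 and 182246 after sham, and 129799, 122462 and 120998 after MI. In both genotypes every MI heart was below every sham and baseline heart. The mean went from 214795 ± 15923 (SD, n = 3) to 143218 ± 19054 (n = 3) in PKM2fl/fl and from 202093 ± 17878 to 124420 ± 4716 (n = 3 each) in PKM2-/- hearts. The log2 fold change of MI against sham was -0.70 (SE 0.27, adjusted p = 0.0377) in PKM2-/- hearts and -0.59 (SE 0.27, 95% interval -1.16 to -0.02, adjusted p = 0.0808, limma) in PKM2fl/fl hearts. The latter did not pass, but it passed with edgeR (adjusted p = 0.0166) and with DESeq2 (adjusted p = 1.26e-06) on the recovered reads. It also passed with limma without the variance trend, a fit chosen after seeing the data (adjusted p = 0.0013). The call in PKM2-/- hearts was lost in 9 of 16 fits that left out a library (adjusted p 0.0505 to 0.0998). Gm37376, annotated on the opposite strand over 453 bases of the *Malat1* exon, had a mean of 16334 normalized counts, and without strand information their reads cannot be told apart.

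*Neat1*, at chr19:5824708-5845480 on the minus strand, is likewise read from a single exon block. Its normalized counts in PKM2fl/fl hearts were 11668 and 13292 at baseline, 15896, 11525 and 14288 after sham, and 8607, 7779 and 6472 after MI. In PKM2-/- hearts they were 12217 and 10913 at baseline, 12070, 12661 and 8886 after sham, and 9046, 8380 and 7509 after MI. The PKM2fl/fl groups did not overlap, while the lowest PKM2-/- sham heart lay within the range of the MI hearts. *Neat1* fell by 0.86 on the log2 scale in PKM2fl/fl hearts (SE 0.16, adjusted p = 0.000357) and by 0.42 in PKM2-/- hearts (SE 0.16, adjusted p = 0.0353, limma). The second call was lost without either of 2 sham or 2 MI libraries of that genotype (adjusted p 0.0697 to 0.136). With total reads in place of size factors the value turned to 0.09 with an adjusted p of 0.84, a scaling under which the median of all genes in that comparison stood at 0.52, so that *Neat1* was still at -0.43 relative to it.

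Genes that work with this pair were measured beside them, in lists chosen with earlier results of these data known. Of 14 paraspeckle protein genes, 5 rose after MI in PKM2fl/fl and 9 in PKM2-/- hearts, against 24.8% and 28.7% of all genes, and 0 fell. Their median log2 fold changes were 0.15 and 0.37, against -0.00254 and 0.0105 over all genes. *Nono*, which encodes a core paraspeckle protein, went from 1372 ± 87.4 to 1938 ± 17.2 normalized counts in PKM2fl/fl hearts (SD, n = 3 each, log2 fold change 0.50, adjusted p = 8.33e-05) and rose by 0.60 in PKM2-/- hearts (adjusted p = 1.17e-05, limma). *Hnrnpa1*, an RNA-binding protein of splicing, rose by 0.40 and 0.85 (adjusted p = 0.00745 and 1.41e-05). Among 9 tested nuclear speckle and splicing genes, 0 rose and 1 fell in PKM2fl/fl hearts, while 4 rose and 1 fell in PKM2-/- hearts. The gene that fell in both was *Qk*, a splicing regulator of muscle (-0.57 and -0.77, adjusted p = 0.000609 and 3.28e-05), and those that rose in PKM2-/- hearts included *Srsf3* by 0.44 and *Srsf2* by 0.48.

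**Figure D2:**
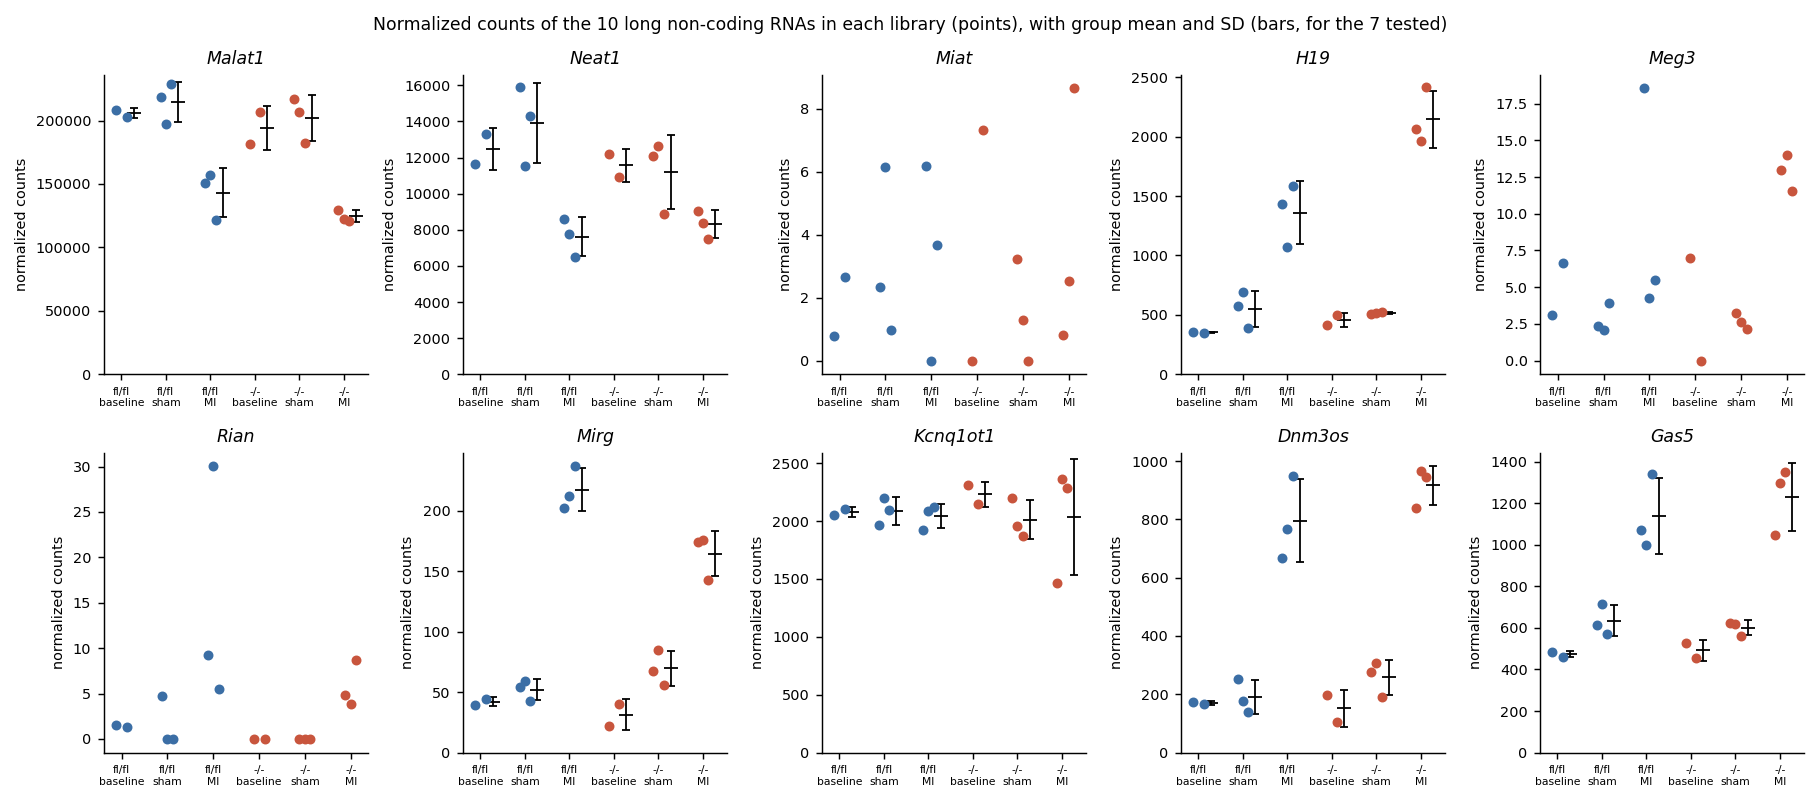
Normalized counts of each of the 10 long non-coding RNAs (vertical axes, linear) in the 6 groups of genotype and treatment. Points are libraries, blue for PKM2fl/fl and red for PKM2-/-, and the bars beside the points of the 7 tested RNAs are the group mean ± SD. In both genotypes the MI hearts lie apart from the sham hearts for *Malat1*, *H19*, *Mirg*, *Dnm3os* and *Gas5*. They also do so for *Meg3* and *Rian*, which had few reads, and not for *Kcnq1ot1* (1462 to 2363 over all libraries). The share of all genes that do so was not counted.

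*H19*, a maternally expressed RNA at chr7:142575530-142578146 on the minus strand, is abundant before birth and low in the adult heart. It had 356 and 349 normalized counts in PKM2fl/fl hearts at baseline, 571, 692 and 390 after sham, and 1430, 1068 and 1585 after MI. The PKM2-/- hearts had 415 and 498 at baseline, 505, 515 and 521 after sham, and 2062, 1961 and 2419 after MI. All 6 MI hearts were above all 10 others, and the 3 PKM2-/- MI hearts were above the 3 PKM2fl/fl MI hearts. *H19* rose by 1.32 (SE 0.18, adjusted p = 2.61e-05) in PKM2fl/fl and by 2.06 (SE 0.18, adjusted p = 3.98e-07, limma) in PKM2-/- hearts.

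The row of *Mir675*, whose 84 bases lie inside an *H19* exon, also rose. It went from 34.5 ± 15.2 to 67.0 ± 11.6 normalized counts in PKM2fl/fl hearts (SD, n = 3 each, log2 fold change 1.03, adjusted p = 0.0166) and from 27.3 ± 4.24 to 129 ± 1.48 in PKM2-/- hearts (2.21, adjusted p = 4.07e-05, limma). The libraries were not made for small RNAs, so these reads are taken as precursor, and reads of the row and of *H19* come from the same bases.

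*H19* belongs to a group of imprinted genes described as a network. Of the other 12 genes listed for it, 6 rose and 3 fell in PKM2fl/fl hearts after MI, and 5 rose and 3 fell in PKM2-/- hearts, where 50.1% and 56.8% of all genes passed. The medians were 0.29 and 0.10. *Mest* went from 145 ± 27.6 to 1056 ± 457 normalized counts in PKM2fl/fl hearts (log2 fold change 2.80, adjusted p = 1.11e-06) and from 133 ± 22.7 to 1305 ± 162 in PKM2-/- hearts (3.30, adjusted p = 1.89e-07, SD, n = 3 each, limma). *Plagl1*, a transcription factor, rose by 1.54 and 1.45 (adjusted p = 2.43e-05 and 2.83e-05). *Cdkn1c*, a brake on the cell cycle, fell in both (-1.49 and -1.28, adjusted p = 0.000204 and 0.000555). *Igf2*, which shares the enhancers of *H19* and was named after its values were seen, rose by 0.68 and 0.79 (adjusted p = 0.0199 and 0.00722).

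*Mirg* is the last gene of the *Meg3*, *Rian* and *Mirg* row, at chr12:109734981-109749458 on the plus strand, and these RefSeq bounds hold 10 annotated microRNA hairpins. By GENCODE exons it also overlaps *Mir134*, *Mir485*, *Mir382* and *Mir668*, with mean normalized counts of 1.06, 1.03, 0.838 and 0.906. The normalized counts of *Mirg* follow. It had 39.2 and 44.5 normalized counts in PKM2fl/fl hearts at baseline, 54.1, 59.5 and 42.6 after sham, and 203, 212 and 237 after MI. In PKM2-/- hearts the values were 22.1 and 40.3 at baseline, 67.5, 84.9 and 56.1 after sham, and 174, 176 and 143 after MI. Every MI heart was above every heart without MI, and the 3 PKM2-/- MI hearts were below the 3 PKM2fl/fl MI hearts. *Mirg* rose by 2.05 (SE 0.23, adjusted p = 5.56e-06) in PKM2fl/fl and by 1.24 (SE 0.23, adjusted p = 0.000287, limma) in PKM2-/- hearts.

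*Meg3* at chr12:109540996-109571729 and *Rian* at chr12:109603945-109661716 on the same strand gave few reads. *Meg3* had 0 to 10 reads in each of the 10 hearts without MI, 12, 4 and 6 in PKM2fl/fl MI hearts, and 16, 22 and 8 in PKM2-/- MI hearts. *Rian* had 2 reads in each PKM2fl/fl baseline heart, 8, 0 and 0 after sham, and 6, 28 and 6 after MI. The 5 PKM2-/- hearts without MI had 0 reads of *Rian*, and the 3 PKM2-/- MI hearts had 6 each. For both RNAs the normalized counts of the MI hearts were above those of the sham hearts of the same genotype. As a group level, *Rian* in PKM2-/- MI hearts was 3.97-fold that of PKM2-/- sham hearts when the sham group was set to a floor of 3 reads. The 18 MI reads were given no error, so this ratio is not a lower bound. It also takes each read as its own count, although all 9 non-zero values of *Rian* and all 15 of *Meg3* were even. Whether both mates of a pair were counted was not tested, and the edgeR and DESeq2 results below rest on the same reads. Without a filter on low values, limma gave an adjusted p of 0.00542 in PKM2fl/fl and 0.0064 in PKM2-/- hearts for *Rian*, and of 0.261 and 0.0549 for *Meg3*. *Rian* had 0 reads in the PKM2-/- sham group, so its fitted value there depends on the pseudocount. On the recovered reads *Meg3* in PKM2-/- hearts passed with edgeR (adjusted p = 0.0207) and DESeq2 (adjusted p = 0.0268), and in PKM2fl/fl hearts it did not (0.0818 and 0.0947). Among the 6 protein-coding genes listed for the region, *Dlk1* and *Rtl1* had 0 normalized counts in all libraries. *Dio3*, which inactivates thyroid hormone, went from 2.09 ± 1.75 to 22.1 ± 15.9 in PKM2fl/fl hearts and from 2.14 ± 3.71 to 30.6 ± 6.02 normalized counts in PKM2-/- hearts (SD, n = 3 each). It was at 0 in all baseline hearts and reached the mean of 10 through the MI hearts alone, so its values are given without a test. *Begain* rose by 1.24 and 1.42 (adjusted p = 0.00455 and 0.00142, limma), and *Wars* and *Wdr25*, named after their values were seen, did not pass.

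*Miat*, at chr5:112213228-112228948 on the minus strand and named for its genetic association with infarction, had 0 to 6 reads per library. It had 0 reads in 3 of 16 libraries, and its groups overlapped in all 7 pairwise comparisons. The intervals were wide (log2 fold change of MI against sham -0.17, 95% interval -2.15 to 1.81, in PKM2fl/fl and 0.89, -1.09 to 2.87, in PKM2-/- hearts, limma without a filter), so a change was not detectable with so few reads.

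*Dnm3os*, at chr1:162217623-162225550 on the plus strand, changed after MI by an amount close to that of *Mirg* in PKM2fl/fl hearts. It had 175 and 165 normalized counts in PKM2fl/fl hearts at baseline, 253, 176 and 140 after sham, and 668, 768 and 950 after MI. The PKM2-/- hearts had 197 and 106 at baseline, 277, 307 and 192 after sham, and 841, 965 and 945 after MI. MI hearts were above all others in both genotypes. *Dnm3os* rose by 2.09 (SE 0.24, adjusted p = 7.22e-06) in PKM2fl/fl and by 1.85 (SE 0.24, adjusted p = 1.30e-05, limma) in PKM2-/- hearts. The rows of its microRNAs were below the mean that was tested, with 15 reads, not scaled for depth, of *Mir214* over the PKM2fl/fl sham hearts and 43 over the MI hearts, and 5 and 41 over the PKM2-/- sham and MI hearts. *Mir199a-2* had 23 and 37 reads in the PKM2fl/fl and 5 and 51 reads in the PKM2-/- groups.

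Genes of the *Dnm3os* locus and mesenchymal transcription factors were listed beside it, and 4 of 6 tested rose in each genotype, against 24.8% and 28.7% of all genes. *Sox9* rose by 2.29 and 1.75 (adjusted p = 0.000187 and 0.00135), *Twist1*, a regulator of *Dnm3os* in development, by 1.95 and 1.76 (adjusted p = 0.000312 and 0.000564), and *Twist2* by 1.38 and 1.53 (adjusted p = 0.000649 and 0.000211). *Dnm3*, whose intron holds *Dnm3os*, did not pass (0.02 and 0.03, adjusted p = 0.89 and 0.854, limma).

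*Gas5*, at chr1:161034601-161038539 on the plus strand, had 484 and 462 normalized counts in PKM2fl/fl hearts at baseline, 614, 716 and 573 after sham, and 1073, 999.8 and 1343 after MI. In PKM2-/- hearts it had 529 and 456 at baseline, 624, 620 and 561 after sham, and 1046, 1297 and 1353 after MI. The 6 MI hearts were above the other 10. *Gas5* rose by 0.84 (SE 0.13, adjusted p = 8.88e-05) in PKM2fl/fl and by 1.03 (SE 0.13, adjusted p = 9.93e-06, limma) in PKM2-/- hearts. With total reads in place of size factors the call in PKM2fl/fl hearts was lost (0.66, adjusted p = 0.0829), while the median of all genes in that comparison was -0.17. Rows of 9 small nucleolar RNAs and exons of *Zbtb37* on the opposite strand overlap the annotated exons of *Gas5*.

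*Gas5* is 1 of a class of host genes of small nucleolar RNAs, and 16 others were tested. Of these, 4 rose and 2 fell in PKM2fl/fl hearts after MI and 11 rose and 1 fell in PKM2-/- hearts, with medians of 0.35 and 0.87. Of all genes 24.8% and 28.7% rose, so the count in PKM2fl/fl hearts was near that share. *Snhg5* went from 106 ± 20.5 to 281 ± 68.0 normalized counts in PKM2fl/fl hearts and from 84.7 ± 6.66 to 362 ± 39.2 in PKM2-/- hearts (SD, n = 3 each, log2 fold change 1.39 and 2.08, adjusted p = 2.70e-05 and 5.53e-07, limma). *Snhg14*, the imprinted host of the Prader-Willi region, fell in both (-0.66 and -0.43, adjusted p = 8.98e-05 and 0.00208).

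*Kcnq1ot1*, at chr7:143213111-143296547 on the minus strand, silences neighbouring genes on the paternal chromosome. It had 2049 and 2106 normalized counts in PKM2fl/fl hearts at baseline, 1965, 2202 and 2098 after sham, and 1923, 2085 and 2118 after MI. In PKM2-/- hearts it had 2309 and 2151 at baseline, 2201, 1958 and 1874 after sham, and 1462, 2363 and 2285 after MI. MI and sham groups overlapped in both genotypes, and replicate 1 of the PKM2-/- MI hearts was the lowest of all. The log2 fold change was -0.03 (95% interval -0.33 to 0.27, adjusted p = 0.869) in PKM2fl/fl and -0.01 (-0.31 to 0.29, adjusted p = 0.956, limma) in PKM2-/- hearts. With total reads without the loci related to ribosomal RNA the values were 0.09 and 0.34, and with total reads -0.21 and 0.50, and none of these passed. *Kcnq1*, annotated on the opposite strand, had a mean of 3487 normalized counts. Without strand information its reads over the *Kcnq1ot1* exons cannot be told from those of *Kcnq1ot1*, so the *Kcnq1ot1* values may hold reads of both.

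*Kcnq1*, which lies opposite *Kcnq1ot1* with 834 bases of shared exon and was named for that overlap, had a log2 fold change of -0.18 (adjusted p = 0.14) in PKM2fl/fl hearts and fell by 0.28 (adjusted p = 0.0253, limma) in PKM2-/- hearts. Of 9 tested genes of the imprinted domain, 3 rose and 2 fell in PKM2fl/fl hearts, and 4 rose and 4 fell in PKM2-/- hearts, where 50.1% and 56.8% of all genes passed. *Cdkn1c* and *Nap1l4* fell in both (*Nap1l4* with -0.56 and -0.52, adjusted p = 0.000168 and 0.000242), and *Trpm5* and *Tssc4* rose in both (0.62 and 1.03 for *Trpm5*, adjusted p = 0.00832 and 0.000146). The levels of the last pair, which are neighbours, were nearly equal, with 200.5 ± 3.01 for *Trpm5* and 195 ± 0.487 normalized counts for *Tssc4* in PKM2fl/fl MI hearts (SD, n = 3), and whether their rows share reads was not tested.

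**Figure D3:**
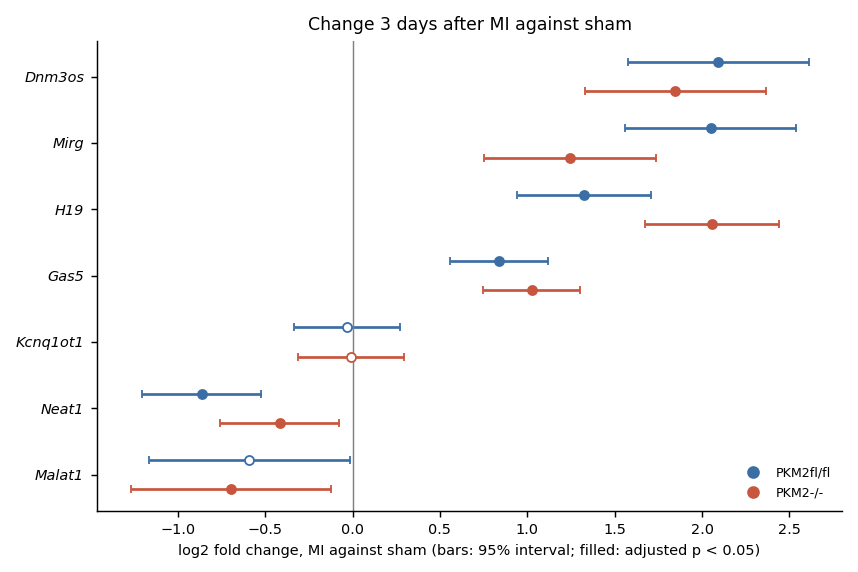
Log2 fold change of MI against sham (horizontal axis) for the 7 tested long non-coding RNAs, blue in PKM2fl/fl and red in PKM2-/- hearts. Points are limma estimates with 95% intervals, filled where the adjusted p was under 0.05. *Dnm3os*, *Mirg*, *H19* and *Gas5* are filled to the right of 0 in both genotypes (0.84 to 2.09), *Neat1* is filled to the left in both (-0.86 and -0.42), and *Malat1* is filled in PKM2-/- hearts (-0.70). In PKM2fl/fl hearts *Malat1* is open and also lies to the left of 0.

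In counts, 4 members rose and 1 fell of the 7 tested in PKM2fl/fl hearts after MI, and 4 rose and 2 fell in PKM2-/- hearts. With 50.1% and 56.8% of all genes passing, a call by itself does not set these RNAs apart. A change of at least 2-fold with an adjusted p under 0.05 was seen for *H19*, *Mirg* and *Dnm3os* in both genotypes and for *Gas5* in PKM2-/- hearts. Of all calls, 49.5% were higher after MI in PKM2fl/fl and 50.5% in PKM2-/- hearts. With total reads these shares became 39.7% and 79.4%, and with total reads without the loci related to ribosomal RNA 60.9% and 72.2%. The *H19*, *Mirg* and *Dnm3os* calls after MI passed in both genotypes under these scalings too.

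The infarcted ventricle differed in its markers of cell types, whose part in the values of these RNAs was not tested. After MI the 7 cardiomyocyte markers summed to 155761 to 370429 normalized counts in PKM2fl/fl and 164864 to 237688 in PKM2-/- hearts, against 782163 to 910148 and 711756 to 861192 after sham, and 6 and 7 of them fell. The 7 fibroblast markers summed to 164356 to 178207 and 143576 to 198206 after MI against 25247 to 46801 and 28666 to 46903 after sham, and 6 rose and 1 fell in each genotype. The 7 leukocyte markers summed to 18687 to 33654 and 26858 to 30950 after MI against 4697 to 9751 and 6654 to 8445 after sham, and 5 rose in each. All 5 proliferation markers rose in both genotypes, with medians of 3.52 and 3.79. Of 5 endothelial markers 2 rose and 1 fell in PKM2fl/fl and 2 rose and 2 fell in PKM2-/- hearts, of 5 mural cell markers 2 rose and 2 or 3 fell, of 5 erythroid markers 0 passed, and of 4 atrial markers 1 rose in each. The 4 adipocyte markers were below the mean that was tested. Of the 5 loci related to ribosomal RNA, 3 rose in PKM2fl/fl and 0 passed in PKM2-/- hearts. No cardiomyocyte, fibroblast or leukocyte marker was at 0 in all libraries. In such bulk RNA, fewer cells of a type and less RNA per cell cannot be told apart.

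The genes whose pattern over the 16 libraries was most like each RNA are given as a description, by Pearson's r of log2 of the normalized count plus 1 over 15467 genes that averaged 50 or more. The libraries share treatment groups, depth and size factors, so high values are common. For *Malat1* they were Gm29331 (0.986), *Rhbdl3* (0.985) and *Fhod3* (0.981), the last an actin regulator of sarcomeres. For *Neat1* they were Gm27533 (0.938), Gm27505 (0.932) and *Atp11a* (0.916). *H19* was closest to *Spidr* (0.987), Gm27483 (0.986) and *Il1rap* (0.985), and *Mirg* to *Galnt16* (0.978), Gm29232 (0.973) and *Adamts2* (0.969), an enzyme that trims procollagen. *Dnm3os* was closest to *Far1os* (0.984), *Itga2* (0.982) and *Arfgap3* (0.981), *Gas5* to *Cers6* (0.994), *Ptprc* (0.992), the common leukocyte antigen, and *Prkcb* (0.990), and *Kcnq1ot1* to *Mllt3* (0.912), *Cox16* (0.885) and Gm38057 (0.830).

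Promoter windows are shown for *Malat1*, *Dnm3os*, *Gas5* and *Mirg*, which passed after MI in at least 1 genotype, from 250 bases before to 50 after the RefSeq start (GRCm38.p6), the RefSeq table holding a window for 8 of the 10. *Meg3* is shown as the first gene of its row, although its limma value did not pass. Both strands were searched for TATAAA and CCAAT, core promoter motifs, for ACGTG, the core of the hypoxia response element, for TGANTCA, the AP-1 motif, and for the E-box CANNTG. TGACGTCA and the CArG box were added after the windows had been read. Capitals mark matches other than CANNTG, which 72.3% of all windows hold, and positions count from the start. The *Dnm3os* window held a CArG box, the binding motif of serum response factor, at -33, as did 1.63% of all 32851 windows. The *Gas5* window, at its second annotated start, and the *Meg3* window each held TGACGTCA, the full cyclic AMP response element, at -46 and -57, as did 1.79% of all windows. Of the windows at the other annotated starts of this pair, which are not shown, that of *Gas5* held only CANNTG, and that of *Meg3* held a CArG box at -94 and CANNTG, but no TGACGTCA. *Meg3* also held CCAAT at -100 (37.4% of all windows) and TATAAA on both strands at -29 and -25, overlapping each other (13.6%), *Mirg* held CCAAT at -184, and *Malat1* held ACGTG at -43 (19.6%). A match describes the letters only.
Malat1 (chr19:5802623-5802922, minus strand): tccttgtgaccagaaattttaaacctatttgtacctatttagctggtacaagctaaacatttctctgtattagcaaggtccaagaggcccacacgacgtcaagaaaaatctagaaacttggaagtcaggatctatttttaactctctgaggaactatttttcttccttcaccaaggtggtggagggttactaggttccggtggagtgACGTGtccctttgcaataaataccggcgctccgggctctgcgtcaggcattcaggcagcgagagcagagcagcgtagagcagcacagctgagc
Dnm3os (chr1:162217373-162217672, plus strand): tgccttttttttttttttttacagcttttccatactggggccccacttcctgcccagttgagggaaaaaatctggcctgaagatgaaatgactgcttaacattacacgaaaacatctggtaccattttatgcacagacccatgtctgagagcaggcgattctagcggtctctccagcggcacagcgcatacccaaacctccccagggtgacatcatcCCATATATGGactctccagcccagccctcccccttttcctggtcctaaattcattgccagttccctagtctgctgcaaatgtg
Gas5 (chr1:161034916-161035215, plus strand): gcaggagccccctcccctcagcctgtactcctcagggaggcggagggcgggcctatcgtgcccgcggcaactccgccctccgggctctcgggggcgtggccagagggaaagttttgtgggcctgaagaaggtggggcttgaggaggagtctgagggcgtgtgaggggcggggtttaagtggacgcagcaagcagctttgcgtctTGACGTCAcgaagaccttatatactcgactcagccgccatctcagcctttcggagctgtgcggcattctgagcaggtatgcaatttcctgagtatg
Mirg (chr12:109734731-109735030, plus strand): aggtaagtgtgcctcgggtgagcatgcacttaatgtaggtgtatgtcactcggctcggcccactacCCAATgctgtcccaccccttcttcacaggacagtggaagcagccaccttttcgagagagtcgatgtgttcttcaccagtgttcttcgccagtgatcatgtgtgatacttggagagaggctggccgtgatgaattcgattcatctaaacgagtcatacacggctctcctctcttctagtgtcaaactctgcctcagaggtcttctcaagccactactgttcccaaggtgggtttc
Meg3 (chr12:109540746-109541045, plus strand): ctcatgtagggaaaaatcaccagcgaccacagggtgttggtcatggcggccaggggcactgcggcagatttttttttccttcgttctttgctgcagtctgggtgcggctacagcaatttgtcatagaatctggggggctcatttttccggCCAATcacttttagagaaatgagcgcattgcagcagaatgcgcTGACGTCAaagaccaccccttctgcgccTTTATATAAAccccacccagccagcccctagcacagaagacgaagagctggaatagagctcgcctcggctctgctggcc

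**Figure D4:**
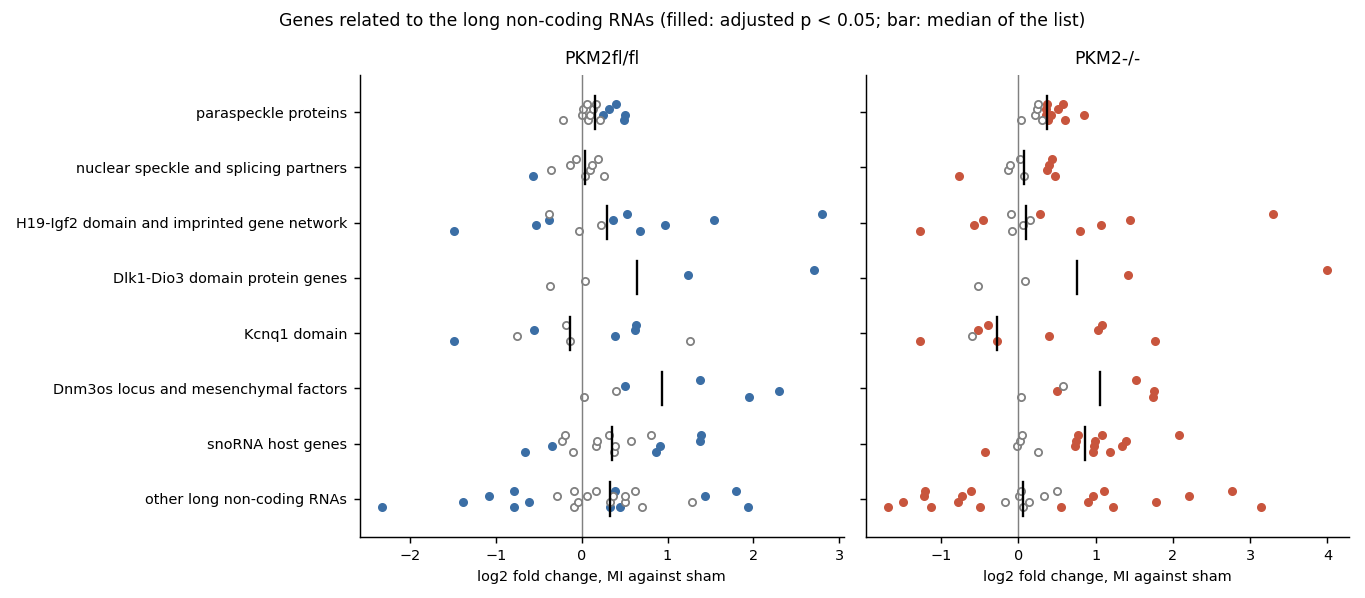
Log2 fold change of MI against sham (horizontal axes) for genes listed beside the long non-coding RNAs, in PKM2fl/fl (left) and PKM2-/- hearts (right). Each point is a gene, filled where limma's adjusted p was under 0.05, and the black bar is the median of its list, with *Dio3*, the filled point at 2.70 in PKM2fl/fl hearts, reaching the filter through the MI hearts alone. Paraspeckle protein genes lie mostly to the right of 0 (medians 0.15 and 0.37), as do hosts of small nucleolar RNAs (0.35 and 0.87).

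Of 25 other long non-coding RNAs tested, 6 rose and 6 fell after MI in PKM2fl/fl hearts, and 9 rose and 9 fell in PKM2-/- hearts. The share that passed in PKM2fl/fl hearts was near the 50.1% of all genes, and in PKM2-/- hearts 56.8% of all genes passed. *Morrbid*, which prolongs the life of myeloid cells, went from 527 ± 26.0 to 2053 ± 453 normalized counts in PKM2fl/fl hearts (log2 fold change 1.94, adjusted p = 1.23e-07) and rose by 2.20 in PKM2-/- hearts (adjusted p = 3.68e-08, limma). *Pvt1*, beside *Myc*, rose by 1.79 and 1.78 (adjusted p = 1.13e-06 and 7.77e-07). *Oip5os1* fell in both (-1.08 and -1.20, adjusted p = 5.46e-06 and 1.28e-06). *Mhrt*, antisense to the alpha myosin heavy chain gene *Myh6*, fell in both (-2.33 and -1.49, adjusted p = 0.000411 and 0.00856), and without strand its reads cannot be told from those of *Myh6*.

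Sham surgery was compared with baseline, with the sham libraries shared with the MI comparison. In PKM2-/- hearts 1 of 7 members passed, against 5.14% of all genes. It was *Mirg*, which went from 31.2 ± 12.8 (SD, n = 2) to 69.5 ± 14.5 normalized counts (n = 3, log2 fold change 1.17, SE 0.26, adjusted p = 0.0168, limma). All 3 sham hearts were above both baseline hearts, and the call was lost without replicate 1 at baseline (0.75, adjusted p = 0.214) or replicate 2 after sham (1.02, adjusted p = 0.0588). In the same comparison 3 of 7 fibroblast, 3 of 7 leukocyte and 4 of 5 proliferation markers rose, and the part of these in the *Mirg* value was not tested. In PKM2fl/fl hearts 0 members passed with limma, edgeR or DESeq2. Of all genes 0.19% passed with limma (39 genes), and 349 genes passed with DESeq2. With limma 2 members had an unadjusted p under 0.05. These were *H19* (0.60, 95% interval 0.18 to 1.03, adjusted p = 0.292) and *Gas5* (0.42, 0.11 to 0.73, adjusted p = 0.334), both with sham hearts above baseline hearts.

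The genotypes were compared within each treatment, which is the question of whether PKM2 loss alters these RNAs. With limma 0 members passed at baseline, after sham, after MI or averaged over the 3 treatments, where 0.00972%, 0.00972%, 0.967% and 0.102% of all genes passed. At an unadjusted p under 0.05 there were 0, 0, 1 and 1 members, and the 1 was *H19* in both. With edgeR 0 passed in all 4, and with DESeq2 1 passed after MI and 0 in the others. Over all genes 1029 passed after MI with DESeq2, against 199 with limma. With 3 libraries a genotype, *H19* after MI averaged 2147 ± 241 normalized counts (SD) without PKM2 and 1361 ± 265 with it. The log2 fold change was 0.67 (SE 0.18, 95% interval 0.29 to 1.05, adjusted p = 0.0781 with limma and 0.0173 with DESeq2). Leaving out PKM2fl/fl MI replicate 3 or PKM2fl/fl sham replicate 3 also took limma's adjusted p under the threshold (0.0155 and 0.0433). Over all genes, the fits that left out a library gave 11 to 2279 passing in this comparison, so these calls do not set *H19* apart.

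For the other members the intervals set limits on a genotype difference rather than showing that there was none. After MI they ran from -0.89 to 0.09 for *Mirg*, where all 3 PKM2-/- hearts (143 to 176 normalized counts) were below all 3 PKM2fl/fl hearts (203 to 237), and from -0.30 to 0.73 for *Dnm3os*. They ran from -0.16 to 0.39 for *Gas5*, from -0.34 to 0.27 for *Kcnq1ot1*, from -0.21 to 0.47 for *Neat1* and from -0.77 to 0.38 for *Malat1*. At baseline, with 2 hearts a genotype, the widest was that of *Malat1* (-0.79 to 0.62) and the narrowest that of *Gas5* (-0.29 to 0.40).

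**Figure D5:**
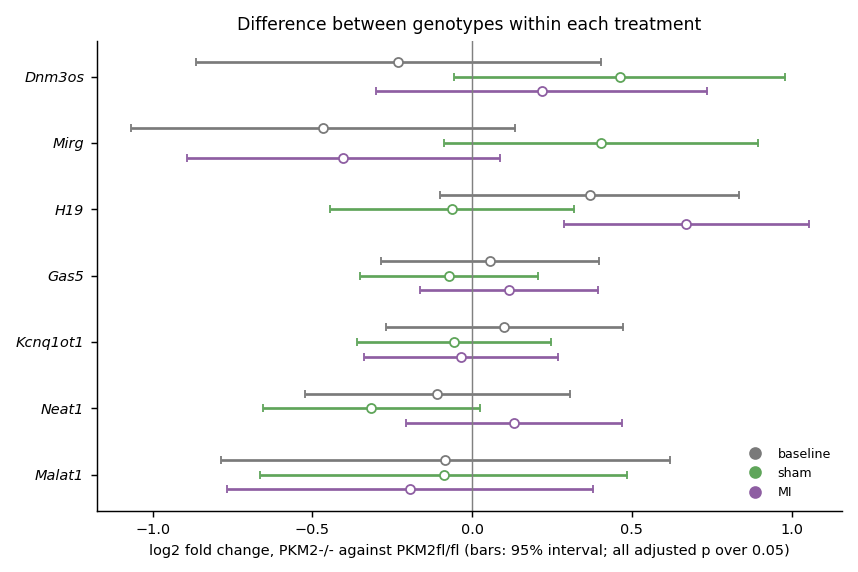
Log2 fold change of PKM2-/- against PKM2fl/fl hearts (horizontal axis) for the 7 tested long non-coding RNAs at baseline (grey), after sham (green) and after MI (purple). Points are limma estimates and bars 95% intervals, and all points are open because each adjusted p was over 0.05. The interval that lies wholly on 1 side of 0 is that of *H19* after MI (0.29 to 1.05).

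The difference of the MI effect between genotypes was tested as an interaction, and 0 of 7 members passed with limma, edgeR or DESeq2, where 0% of all genes passed with limma. 2 members had an unadjusted p under 0.05. The MI effect on *H19* was larger in PKM2-/- hearts by 0.73 (95% interval 0.19 to 1.27, adjusted p = 0.507), and that on *Mirg* was smaller, with a difference of -0.81 (-1.50 to -0.11, adjusted p = 0.549, limma). The *Neat1* effect differed by 0.45 (-0.03 to 0.93, adjusted p = 0.629), so the fall of 0.86 in one genotype and 0.42 in the other is not shown to differ.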

How the data were processed

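Left ventricular RNA was depleted of ribosomal RNA and sequenced paired-end from a library kit that does not keep strand. The authors used PRINSEQ to trim reads, HISAT2 for alignment (mm10), featureCounts for counts per gene and DESeq2 for normalization. The versions and the settings for strand and multiply mapped reads are not given in the sources used here. The deposited table holds a normalized signal (counts divided by size factors) for each library and gene. Its columns of the authors' own comparisons (log2 fold changes, test scores and p-values) were not used, and 0 columns of per-library values lacked a sample.

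The scale was log2(normalized count + 1), and limma 3.58.1 (R 4.3.3, variance trend) was run in 1 fit of the 6 groups, since the table is normalized. Rows averaging under 10 were dropped, and p-values were adjusted by Benjamini-Hochberg over the remainder. Reads were recovered as whole multiples of each library's step (100% of values within 0.1 of a whole number) and tested with edgeR 4.0.16 and DESeq2 1.42.0 as alternatives. Other alternatives were TMM factors, total reads with and without loci related to ribosomal RNA, a pseudocount of 0.1, no filter, at least 10 reads in every library, the compared groups alone, a replicate block and leaving out each library. A limma fit without the variance trend was chosen after seeing the data. The main limma fit was tested on simulated data, and the edgeR and DESeq2 fits were not.

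The members and the gene lists were chosen with earlier results of these data known. The text names the 10 members, at most 4 genes of a list that passed with the smallest p in a comparison, and the 3 genes most alike to each tested member. Other genes are said to be named after their values were seen. Coordinates and sequences are from RefSeq (GRCm38.p6), and exon lengths per kilobase from GENCODE M39, which is not the authors' annotation. Intervals on shares of reads cover counting error only. Same-numbered libraries came from different mice, so the numbers do not pair them.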

Additional observations from a re-analysis of the deposited data

How the results depend on the processing

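The *H19*, *Mirg* and *Dnm3os* rises after MI kept their direction and passed in both genotypes under all alternatives and without any single library, as did the rise of *Gas5* in PKM2-/- and the fall of *Neat1* in PKM2fl/fl hearts. With total reads, *Neat1* in PKM2-/- hearts turned from -0.42 to 0.0946 (adjusted p = 0.84), *Malat1* in PKM2-/- hearts no longer passed (-0.18, adjusted p = 0.785), and total reads without loci related to ribosomal RNA also ended both calls (-0.07 and -0.35). No filter on low values ended both too (adjusted p = 0.066 and 0.0941), and *Malat1* was lost with at least 10 reads in every library (0.058) and with the compared groups alone (0.0581). *Malat1* in PKM2fl/fl hearts passed with edgeR, DESeq2 and, chosen after seeing the data, limma without the variance trend (adjusted p = 0.0013).

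Of the 7 members, 0 passed for sham against baseline in PKM2-/- hearts with total reads or with the compared groups alone, and leaving out a library gave 0 to 1 there. Without baseline replicate 1 of that genotype the 1 was *Dnm3os* (1.25, adjusted p = 0.0455) and not *Mirg*. For sham against baseline in PKM2fl/fl hearts leaving out a library gave 0 to 1, the 1 being *H19* without sham replicate 3 (0.83, adjusted p = 0.0281). Between genotypes after MI 1 passed with DESeq2 and 1 with total reads without loci related to ribosomal RNA, and leaving out a library gave 0 to 1. The replicate block left the counts of members passing at 5 and 6 after MI in PKM2fl/fl and PKM2-/- hearts and at 0 and 1 for sham against baseline, and it changed no other call. Same-numbered libraries did not deviate together (median correlation -0.0266 over 36 pairs, against 0.0130 over 70 pairs of other numbers). The average over treatments could not be fitted with the compared groups alone.

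Over all genes, 199 passed between genotypes after MI, against 6 with the compared groups alone and 1029 with DESeq2, and 11 to 2279 without a library. For sham against baseline 39 passed in PKM2fl/fl hearts (1 to 349 under other settings, 7 to 282 without a library) and 1058 in PKM2-/- hearts (588 to 1393, and 316 to 1422). In the same order the counts were 2 for genotype at baseline (1 to 48, and 0 to 40), 2 after sham (0 to 266, and 0 to 90), 21 averaged (0 to 306, and 0 to 715) and 0 for the interaction (0 to 60, and 0 to 486). After MI in PKM2fl/fl hearts 10299 passed, against 6027 with total reads. Few reads limit *Miat*, *Meg3* and *Rian*, and 2 baseline hearts a genotype limit that comparison. The causes of these changes were not tested.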

Other observations

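The recovered reads of the rarest members were mostly even numbers. All 15 non-zero values of *Meg3* and all 9 of *Rian* were even, as were 10 of 13 for *Miat* (76.9%) and 7 of 16 for *Mirg*. Over all genes 65.0% of the 195224 values between 1 and 28 reads were even. Of 7597 genes with at most 28 reads and as many non-zero libraries as *Rian*, 411 (5.41%) were even in every library. Whether both mates of a pair were counted was not tested.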
